A study of Mus musculus with 12 samples.

Results

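This account covers 7 genes of cellular transport and uptake in Etl4 knockout (KO) and wild-type (WT) mouse haploid embryonic stem cells (ESCs), out of 24421 gene symbols counted by RNA-seq. The genes were taken by symbol from both count tables. They are the prostaglandin transporter Slco2a1, the glycine transporter Slc6a9, and the LDL receptor-related proteins Lrp1, Lrp2, Lrp5, Lrp6 and Lrp8. Slco2a1 and Slc6a9 were chosen by their counts, as carriers higher in KO than in WT of both parental lines, and the LRP genes by family, in a set named for its change in KO. The KO versus WT values of all 7 are therefore given as a description, with a standard error (SE) and no test. Comparisons that did not choose the genes, between the KO lines of one parent and between the WT cells of the 2 parents, are tested.

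The cells were androgenetic haploid ESCs on a C57BL/6 background, which hold a single chromosome set of paternal origin. There were 12 libraries in 5 groups: OdG Etl4 KO line 1 (2 libraries), OdG Etl4 KO line 2 (2), OdG WT (2), EG1 Etl4 KO (3) and EG1 WT (3). OdG and EG1 are the parental lines, each in a table of its own, and no treatment is given. The labels do not describe the edit, do not say whether a KO line is a single clone and do not tie replicates to separate cultures, so each p-value is set against library-to-library spread that could be technical alone. An OdG library held 16110028 to 18774032 counts and an EG1 library 17421260 to 19706599. Levels are counts divided by library size (CPM), with all 12 libraries scaled together by the trimmed mean of M values. Etl4 itself was at 96.2 to 113 CPM in the OdG KO libraries against 203 and 208 in OdG WT, and at 132 to 136 in EG1 KO against 262 to 268 in EG1 WT. The 10 ESC markers examined summed to between 7350 and 9670 CPM in every library. In OdG KO 9 of them rose and 1 (Tdgf1) fell, where 29.4% of all genes rose and 30.5% fell (edgeR, adjusted p under 0.05). In EG1 KO 1 of them rose and 1 fell, where 3.60% of all genes rose and 4.06% fell. Their part in the results below was not tested.

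Slco2a1 (also known as Pgt) is a membrane carrier that takes prostaglandins, lipid signals made from arachidonic acid, from outside the cell into the cytoplasm, where they can be broken down. Slc6a9 (also known as Glyt1) brings glycine into the cell together with sodium and chloride. Glycine feeds purine, glutathione and one-carbon metabolism, and mouse ESCs are known for making glycine from threonine with the enzyme Tdh. The LRP proteins are large single-pass receptors of the LDL receptor family. Lrp1 and Lrp2 (megalin) carry bound ligands into the cell by endocytosis, Lrp5 and Lrp6 are the co-receptors through which Wnt proteins act with Frizzled receptors, and Lrp8 (ApoER2) binds reelin and apolipoprotein E.

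Slco2a1 was higher in the KO libraries of both parents. It was at 56.3 and 62.9 CPM in OdG KO line 1 and at 51.4 and 52.2 CPM in OdG KO line 2, against 33.9 and 31.7 CPM in OdG WT. In EG1 it was at 21.3, 22.6 and 23 CPM in KO libraries, against 13.5, 11.9 and 11.9 CPM in WT libraries. Every KO library lay above every WT library of its own parent, and all 6 EG1 libraries lay below both OdG WT libraries. The log2 fold change was 0.86 ± 0.0689 (SE) in OdG KO line 1 and 0.67 ± 0.0698 in line 2, each against OdG WT, and 0.84 ± 0.0838 in EG1 KO against EG1 WT.

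Slc6a9 followed the same order of groups at a lower CPM. It was at 23 and 24.5 CPM in OdG KO line 1 and at 22 and 20.5 CPM in OdG KO line 2, against 13.3 and 13.4 CPM in OdG WT. It was at 6.86, 8.54 and 7.46 CPM in EG1 KO, against 4.09, 4.93 and 4.59 CPM in EG1 WT. The KO and WT libraries of each parent did not overlap. The log2 fold change was 0.83 ± 0.0934 in line 1, 0.67 ± 0.0945 in line 2 and 0.74 ± 0.139 in EG1 KO. In raw counts Slc6a9 had 367 to 427 in the OdG KO libraries and 229 to 232 in OdG WT, and 119 to 148 in EG1 KO and 72 to 90 in EG1 WT.

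**Figure D1:**
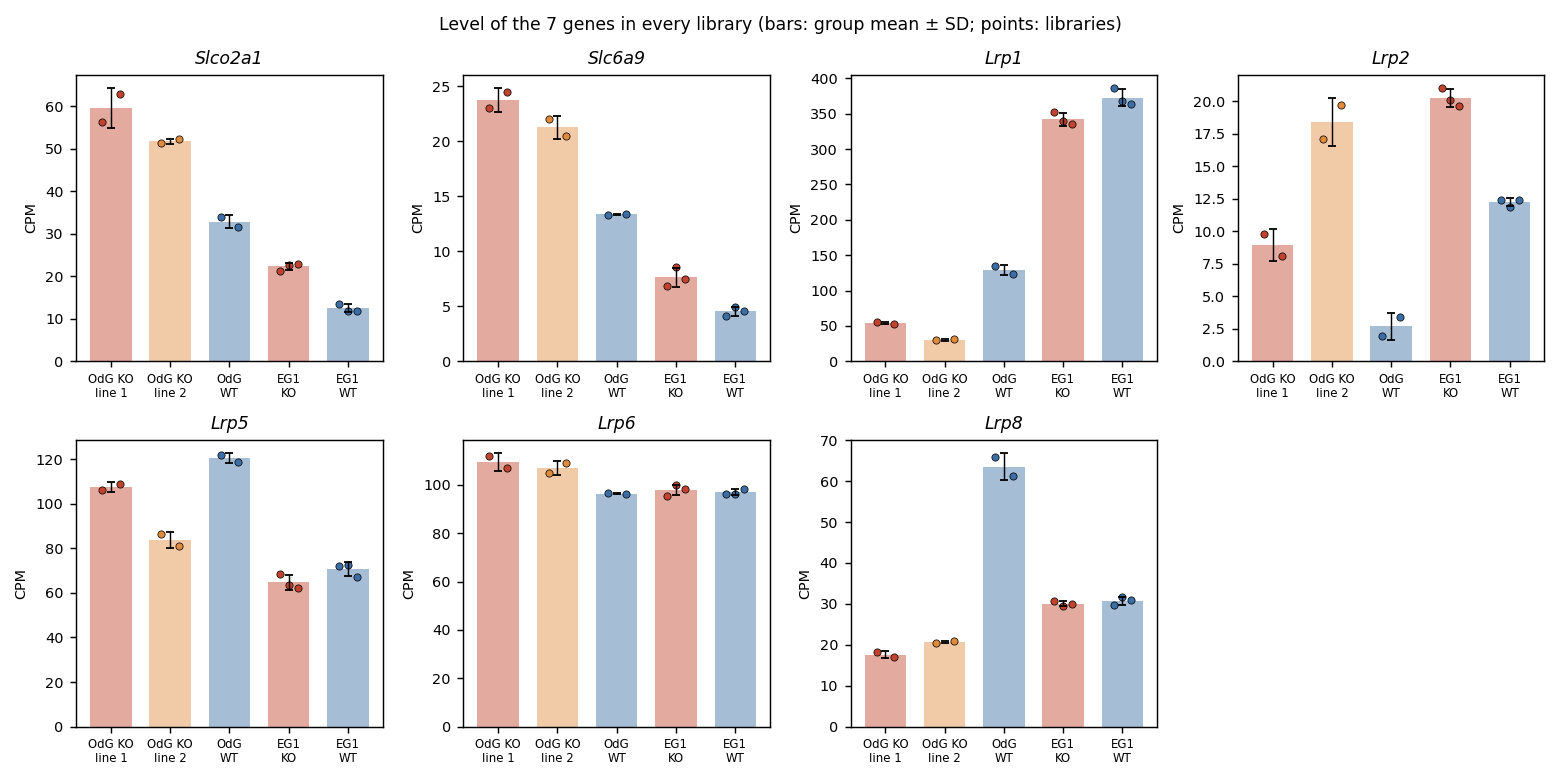
Level in CPM (vertical axes, starting at 0) of each of the 7 genes in the 5 groups (horizontal axes), with points for libraries and bars for the group mean ± SD. Slco2a1 and Slc6a9 share the order OdG KO line 1, OdG KO line 2, OdG WT, EG1 KO, EG1 WT, while Lrp1 is highest in EG1 and Lrp8 stands highest in OdG WT.

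The order of the 5 groups was the same for both transporters, with OdG KO line 1 highest and EG1 WT lowest, and no neighbouring groups overlapped in their libraries. Across the 12 libraries the log2 CPM of Slco2a1 and Slc6a9 had a Pearson r of 0.988. Both were chosen as higher in KO of both parents, so that part of the shared order and of r was set by the choice. Likeness was ranked among 10913 tested genes reaching 5 CPM in some group, after predicted genes and those with clone-style symbols were passed over. The 3 most like Slco2a1 were Ipo5 (r = 0.992), which encodes an importin of nuclear transport, Nt5e (r = 0.99), which encodes the ecto-nucleotidase CD73, and Slc6a9. The 3 most like Slc6a9 were Nt5e (r = 0.99), Slco2a1 and Polr2m (r = 0.987), which encodes a protein associated with RNA polymerase II. These points share their library and fall into only 5 groups, and the measure ignores the size of the change: Ipo5 averaged 1330, 1300 and 1160 CPM in OdG KO line 1, KO line 2 and WT, and 1100 and 1010 CPM in EG1 KO and WT.

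The promoter windows were searched because the 2 transporters had so similar a pattern, and because Lrp1 and Lrp2 lay on opposite sides of OdG WT. RefSeq windows (GRCm38.p6, the mm10 coordinates) of 250 bases before an annotated start were matched for 5 of the 7 genes. Both strands were searched for 6 motifs. The general promoter motifs were GGGCGG, which binds Sp1-type factors, the box TATAAA near which transcription often starts, and the sequence CCAAT. The others were ACGTG, the core of the hypoxia response element, the E-box CACGTG, which holds that core within it, and the sterol regulatory element TCACNCCAC. Positions are those of the first base of a match, counted back from the start. Slco2a1 had GGGCGG at -106 and TATAAA at -29, and the most upstream of the Slc6a9 windows had GGGCGG at -61 and -51. Lrp2 had GGGCGG at -143 and -88, and Lrp1 had it on the opposite strand at -99. These matches are in capitals below, in the 30 bases around TATAAA of Slco2a1 (chr9:103008447-103008476, plus strand) and around both GGGCGG of Slc6a9 (chr4:117835192-117835221, plus strand). For Lrp2 (chr2:69586066-69586279, minus strand) and Lrp1 (chr10:127621149-127621398, minus strand) the part of the window outside annotated exons is shown.
Slco2a1: tcgctgccactTATAAAaacttctgggcgc
Slc6a9: gaccaGGGCGGgggaGGGCGGccaggggag
Lrp2: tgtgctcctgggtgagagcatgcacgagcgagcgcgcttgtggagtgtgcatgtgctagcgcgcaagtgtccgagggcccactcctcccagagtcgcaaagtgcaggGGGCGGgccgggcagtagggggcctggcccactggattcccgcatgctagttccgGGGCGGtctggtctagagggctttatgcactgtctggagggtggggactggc
Lrp1: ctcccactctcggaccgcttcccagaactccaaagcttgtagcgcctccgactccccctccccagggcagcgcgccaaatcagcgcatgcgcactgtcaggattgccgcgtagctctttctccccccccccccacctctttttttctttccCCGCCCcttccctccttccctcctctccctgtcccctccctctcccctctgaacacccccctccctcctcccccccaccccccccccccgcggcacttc
The other 4 motifs and, in Lrp8, all 6 had no match in the windows of these genes. Of all 32851 windows in the RefSeq table, 32.7% held GGGCGG, 12.4% TATAAA, 33.8% CCAAT, 16.6% ACGTG, 6.02% CACGTG and 1.05% TCACNCCAC. A match describes the letters and does not show that a factor binds.

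Lrp1 was lower in both OdG KO lines and was highest in EG1. It was at 54.9 and 52.7 CPM in OdG KO line 1 and at 29.4 and 30.8 CPM in OdG KO line 2, against 134 and 124 CPM in OdG WT. It was at 352, 339 and 335 CPM in EG1 KO, against 386, 368 and 363 CPM in EG1 WT. Both OdG lines lay well under OdG WT without overlap, and the 3 EG1 KO libraries lay just under the 3 EG1 WT libraries. The log2 fold change was -1.26 ± 0.0517 in line 1, -2.09 ± 0.0581 in line 2 and -0.13 ± 0.0345 in EG1 KO, and the OdG effect minus the EG1 effect was -1.55 ± 0.0565. Lrp1 is also abundant in fibroblasts, which are used as feeder cells. The 13 fibroblast markers summed to 31.9 to 33.3 CPM in OdG KO line 1 and 17.9 to 19 CPM in line 2, against 44.8 to 49.9 CPM in OdG WT. They summed to 15.5 to 17.9 CPM in EG1 KO and 13.1 to 15.9 CPM in EG1 WT. Within OdG the sum fell from WT to line 1 to line 2, as Lrp1 did, while Lrp1 was highest in EG1. In OdG WT Pdgfrb made up 30.1 CPM of that sum, Col1a1 10.9 CPM, Thy1 3.09 CPM and Col1a2 1.42 CPM. The other 9 markers averaged under 1 CPM there, and Fap had 0 counts in every library and Postn at most 1. In OdG KO lines 1 and 2 Col1a1 was at 12 and 2.68 CPM and Pdgfrb at 15.2 and 8.7 CPM. Thy1 (2.73 and 3.33 CPM) and Col1a2 (1.17 and 1.63 CPM) did not fall from line 1 to line 2. The part of feeder cells in the Lrp1 values was not tested.

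Lrp2 was higher in KO of both parents, from a very low level in OdG WT. It was at 9.8 and 8.07 CPM in OdG KO line 1 and at 17.1 and 19.7 CPM in OdG KO line 2, against 1.95 and 3.4 CPM in OdG WT (34 and 58 counts). It was at 21, 20.1 and 19.6 CPM in EG1 KO, against 12.4, 11.9 and 12.4 CPM in EG1 WT. KO and WT libraries did not overlap within a parent, and EG1 WT lay above OdG KO line 1. The log2 fold change was 1.75 ± 0.214 in line 1, 2.79 ± 0.203 in line 2 and 0.72 ± 0.0836 in EG1 KO. For both OdG KO lines together it was 2.27 ± 0.196, and 48 of 14413 genes tested rose further in that comparison. Lrp2 is a receptor of the visceral endoderm and the kidney tubule, where it acts with cubilin (Cubn) and amnionless (Amn). The 15 primitive and visceral endoderm markers summed to 886 to 890 CPM in OdG KO line 1 and 547 to 559 CPM in line 2, against 1000 to 1040 CPM in OdG WT. They summed to 1040 to 1090 CPM in EG1 KO and 967 to 976 CPM in EG1 WT. The sum was thus lower in OdG KO and higher in EG1 KO than in WT, while Lrp2 was higher in both, and its part in the result was not tested. Sparc made up much of it, at 546 and 323 CPM in OdG KO lines 1 and 2 against 615 CPM in OdG WT, and 608 CPM in EG1 KO against 596 CPM in EG1 WT. Lama1, Col4a1 and Col4a2 made up most of the rest, at 251, 74.5 and 62.3 CPM in OdG WT. They were at 181, 80.5 and 69.5 CPM in OdG KO line 1 and at 159, 34.2 and 22.8 CPM in line 2. In EG1 KO they were at 128, 198 and 111 CPM, against 117, 157 and 88.8 CPM in EG1 WT. The transcription factor genes Gata6, Gata4, Sox17, Sox7 and Foxa2 averaged at most 3.63 CPM in any group. Amn averaged 2.96 ± 0.301 and 2.91 ± 0.043 CPM in OdG KO lines 1 and 2 against 5.13 ± 0.0468 CPM in OdG WT (SD, n = 2 each) and fell there (log2 -0.80 ± 0.154, adjusted p = 0.00025 by edgeR), with a log2 value of -0.02 in EG1 KO (adjusted p = 0.96). Cubn had at most 6 counts in any library, and Ttr at most 7.

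Lrp8 was lower in both OdG KO lines and overlapped between KO and WT in EG1. It was at 18.2 and 17 CPM in OdG KO line 1 and at 20.4 and 20.8 CPM in OdG KO line 2, against 65.8 and 61.2 CPM in OdG WT. It was at 30.8, 29.5 and 29.9 CPM in EG1 KO, against 29.7, 31.6 and 31 CPM in EG1 WT. OdG WT stood above all other groups, and both OdG KO lines lay below EG1. The log2 fold change was -1.85 ± 0.077 in line 1, -1.62 ± 0.0743 in line 2 and -0.04 ± 0.063 in EG1 KO, and the OdG effect minus the EG1 effect was -1.70 ± 0.0861.

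Lrp5 and Lrp6, the Wnt co-receptors, had the smallest differences in OdG. Lrp5 was at 106 and 109 CPM in OdG KO line 1 and at 86.3 and 81.3 CPM in OdG KO line 2, against 122 and 119 CPM in OdG WT. It was at 68.4, 63.6 and 62.1 CPM in EG1 KO, against 72.2, 72.6 and 67.2 CPM in EG1 WT. OdG KO libraries lay below OdG WT, and EG1 KO overlapped EG1 WT. The log2 fold change of Lrp5 was -0.16 ± 0.0428 in line 1, -0.52 ± 0.0441 in line 2 and -0.13 ± 0.0503 in EG1 KO. Lrp6 was at 112 and 107 CPM in OdG KO line 1 and at 105 and 109 CPM in OdG KO line 2, against 96.5 and 96.2 CPM in OdG WT. It was at 95.5, 99.8 and 98.4 CPM in EG1 KO, against 96.4, 96.2 and 98.4 CPM in EG1 WT. Only the OdG KO libraries stood apart, by a log2 fold change of 0.18 ± 0.0422 in line 1 and 0.16 ± 0.0422 in line 2, with 0.01 ± 0.0416 in EG1 KO. In bulk RNA fewer cells with a transcript and less transcript per cell cannot be told apart, here and for every gene above.

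**Figure D2:**
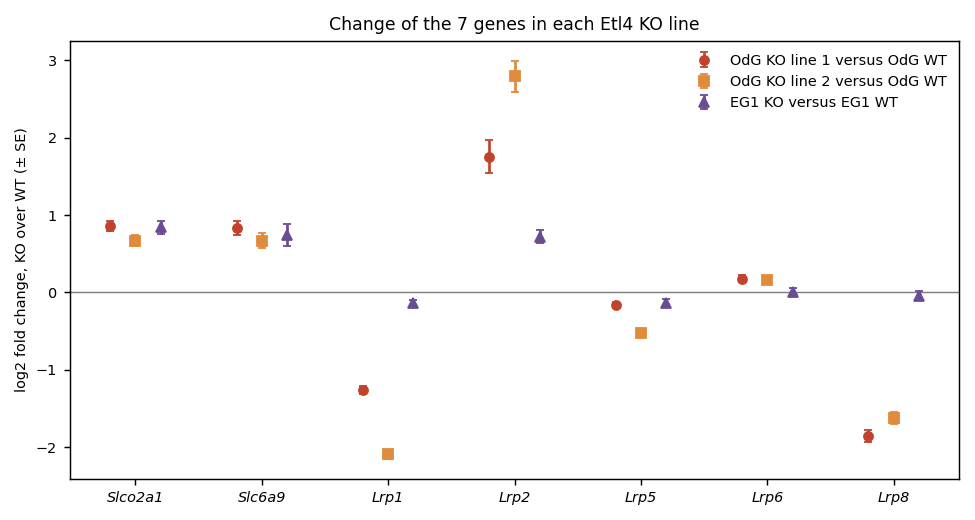
Log2 fold change of KO over WT (vertical axis, ± SE) for the 7 genes in OdG KO line 1, OdG KO line 2 (both against the same 2 OdG WT libraries) and EG1 KO. Slco2a1 and Slc6a9 sit between 0.67 and 0.86 in all 3 KO lines, whereas Lrp1 and Lrp8 lie between -1.26 and -2.09 in the OdG lines and at -0.13 and -0.04 in EG1.

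These counts stand against broad change in OdG and little change in EG1. All 7 genes had OdG KO libraries that did not overlap OdG WT, 4 above and 3 below, in a comparison where 55.4% of genes tested did not overlap (26.9% above and 28.6% below) and 59.9% passed an adjusted p of 0.05 in edgeR. In EG1, 3 of the 7 lay wholly above WT and 1 wholly below, where 25.3% of genes did not overlap (13.6% above and 11.8% below) and 7.66% passed. Because these contrasts chose the genes, nothing is read from either share. The difference between the OdG and EG1 effects, which passed for 39.8% of 14977 genes, was -0.08 ± 0.102 for Slco2a1 and 0.00 ± 0.154 for Slc6a9, and 1.54 ± 0.201 for Lrp2 on the log2 scale. For Lrp2 it was 1.19 without OdG WT replicate 1 and 1.99 without replicate 2. It was -0.22 ± 0.0645 for Lrp5 and 0.15 ± 0.0547 for Lrp6. The count of genes called in EG1 was 1074. It was 638, 672 and 658 without EG1 WT replicate 1, 2 and 3 and 684 with DESeq2. With the 4 OdG KO libraries pooled into one group, 4609 genes were called in OdG in place of 8638.

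The 2 OdG KO lines differed from each other at 5 of the 7 genes, in a comparison that did not choose them and in which 37.8% of all genes passed (edgeR's quasi-likelihood test, Benjamini-Hochberg adjustment over 14413 genes). Line 2 had more Lrp2 than line 1 (log2 1.04 ± 0.144, adjusted p = 1.6e-05) and less Lrp1 (log2 -0.83 ± 0.0625, adjusted p = 9.4e-09) and Lrp5 (log2 -0.36 ± 0.0446, adjusted p = 6.1e-06). For these 3 genes every alternative kept the call. Lrp8 was higher in line 2 (log2 0.23 ± 0.0864, adjusted p = 0.043) and Slco2a1 lower (log2 -0.19 ± 0.0643, adjusted p = 0.026). Neither held throughout: with DESeq2 the adjusted p was 0.15 for Lrp8 and 0.13 for Slco2a1, and 3 of the 7 genes were called. Leaving out OdG KO line 1 replicate 2, or line 2 replicate 1 or 2, also left 3, and Lrp8 alone was lost without line 1 replicate 1 (adjusted p = 0.084). Slc6a9 (log2 -0.15 ± 0.086, adjusted p = 0.17) and Lrp6 (log2 -0.02 ± 0.0417, adjusted p = 0.67) did not pass. DESeq2 called 3407 genes in this comparison and edgeR 5454.

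The WT cells of the 2 parents differed at 6 of the 7 genes, against 70.3% of the 14977 genes tested over all 12 libraries. EG1 WT held more Lrp2 than OdG WT (log2 2.18 ± 0.18, adjusted p = 1.9e-13) and more Lrp1 (log2 1.52 ± 0.0407, adjusted p = 3.6e-24). It held less Slc6a9 (log2 -1.57 ± 0.123, adjusted p = 6.2e-13), less Slco2a1 (log2 -1.41 ± 0.0822, adjusted p = 5.2e-16), less Lrp8 (log2 -1.06 ± 0.0609, adjusted p = 5e-16) and less Lrp5 (log2 -0.78 ± 0.0484, adjusted p = 3e-15). The calls of these 6 genes held in all 17 alternatives. Lrp6 did not pass (log2 0.00 ± 0.0421, adjusted p = 0.98). These p-values come from edgeR's quasi-likelihood test. Parental line and table cannot be told apart here, since each parent has its own table. For these 6 genes the gap between the WT cells was larger in size than the log2 difference between EG1 KO and EG1 WT. The log2 difference between OdG KO and OdG WT was larger in size than that gap for Lrp8 (-1.73), in each KO line as well. It was smaller, also in each line, for Slco2a1 (0.76), Slc6a9 (0.75) and Lrp5 (-0.34). For Lrp1 it was larger in the mean of the lines (-1.67). For Lrp2 (2.27 ± 0.196) it differed from the gap by less than the SE, and both values share the OdG WT libraries. Lrp1 and Lrp2 lay under the gap in size in line 1 (-1.26 and 1.75) and above it in line 2 (-2.09 and 2.79).

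Between genes, levels are compared per kilobase of exon, using the union of GENCODE M21 exons on mm10. That union may not be the annotation the authors counted on. Lrp1 was highest in EG1, at 19.3 CPM per kb in KO and 21 in WT, against 3.04 in OdG KO line 1, 1.7 in OdG KO line 2 and 7.27 in OdG WT. Lrp5 was highest in all 3 OdG groups, at 11.1 in KO line 1, 8.6 in KO line 2 and 12.4 CPM per kb in WT. Lrp2 was lowest of the 7 in every group, at 0.535, 1.1 and 0.16 CPM per kb in OdG KO line 1, OdG KO line 2 and OdG WT, and 1.21 and 0.733 in EG1 KO and EG1 WT. The 2 transporters lay close to each other per length in each group, for example Slc6a9 at 4.62 and Slco2a1 at 4.4 CPM per kb in OdG KO line 1.

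**Figure D3:**
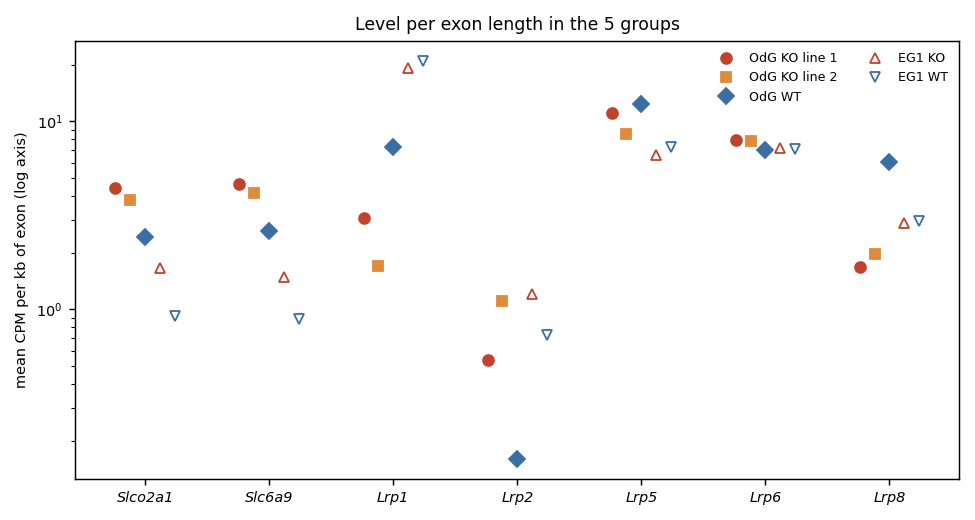
Mean CPM per kilobase of exon (vertical log axis) of the 7 genes in the 5 groups, with filled symbols for OdG and open symbols for EG1. Lrp6 spans 7.05 to 7.98 over the groups, while Lrp1 runs from 1.7 in OdG KO line 2 to 21 in EG1 WT.

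The genes lie on mm10 chromosomes 9 (Slco2a1, 102988712 to 103096002, plus strand), 4 (Slc6a9, 117834506 to 117875198, plus; Lrp8, 107802261 to 107876840, plus) and 10 (Lrp1, 127538161 to 127621148, minus). Lrp2 lies on chromosome 2 (69424340 to 69586065, minus), Lrp5 on 19 (3584828 to 3686564, minus) and Lrp6 on 6 (134446476 to 134566965, minus). Slc6a9 shares exon sequence with 2 protein-coding genes on the opposite strand, Ccdc24 and B4galt2, and the strand setting of the counting is not given in the sources used here. Reads over the shared exons could therefore belong to either gene. Ccdc24 had 9 to 17 counts in the OdG KO libraries against 19 and 22 in OdG WT, and 7 to 9 in EG1 KO against 8 to 20 in EG1 WT. B4galt2 had 92 to 136 counts in OdG KO against 142 and 155 in OdG WT, and 101 to 119 in EG1 KO against 104 to 129 in EG1 WT. Which gene the reads of the shared exons were counted for was not tested.

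The closest patterns to the LRP genes, by Pearson r over the 12 libraries among the same 10913 genes, differed from member to member. For Lrp1 they were Plekhg1 (r = 0.998), which encodes a pleckstrin and RhoGEF domain protein, and Dusp9 (r = 0.997), an ERK phosphatase gene. For Lrp2 they were Hecw2 (r = 0.983), a ubiquitin ligase gene, and Gsto1 (r = 0.981), a glutathione transferase gene. For Lrp5 they were Pvrl2 (r = 0.99), an adhesion molecule gene, and Gla (r = 0.989), which encodes the lysosomal alpha-galactosidase. For Lrp6 they were Cnot11 (r = 0.962), of the CCR4-NOT deadenylase complex, and Scaf11 (r = 0.96). For Lrp8 they were Vegfa (r = 0.984), an angiogenic growth factor gene, and Pgk1 (r = 0.982), a glycolytic enzyme gene. Vegfa averaged 130 ± 4.94 and 143 ± 5.05 CPM in OdG KO lines 1 and 2 against 292 ± 11.8 in OdG WT (SD, n = 2 each), and 163 ± 0.893 in EG1 KO against 180 ± 3.07 in EG1 WT (SD, n = 3 each). These correlations carry no test.

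The genes around glycine were examined next, as lists that do not include the members. In OdG KO, 9 of 19 genes of glycine synthesis, cleavage and one-carbon use rose and 4 fell (median log2 0.17, against -0.01 over all genes, of which 29.4% rose and 30.5% fell). Treated as one group of 4, the OdG KO libraries gave 7 higher and 0 lower, and DESeq2 gave 9 and 2. In EG1 KO 6 of 19 rose (median log2 0.09, against 0 over all genes, of which 3.60% rose and 4.06% fell). None fell in EG1 KO by edgeR, nor at an unadjusted p of 0.05 or by DESeq2, and 3 rose without EG1 WT replicate 2. Gcsh, Mthfd2, Phgdh, Psat1 and Psph rose in both parents. Among the 13630 genes tested in both, 2.69% rose in both and 2.56% fell in both. Psat1, of serine synthesis, averaged 574 ± 10.1 and 556 ± 1.76 CPM in OdG KO lines 1 and 2 against 419 ± 4.01 in OdG WT (mean ± SD, as for all list genes, with n = 2 for each OdG group and 3 for each EG1 group; log2 0.43 ± 0.0259, adjusted p = 2.3e-10). In EG1 it averaged 455 ± 4.35 CPM in KO against 369 ± 6.02 in WT (log2 0.30 ± 0.0318, adjusted p = 4.1e-08). Mthfd2, a mitochondrial one-carbon enzyme, showed log2 0.53 in OdG KO and 0.39 in EG1 KO (adjusted p = 1.6e-09 and 2.1e-07). Tdh, which makes glycine from threonine in mouse ESCs, averaged 771 ± 2.72 and 710 ± 10.8 CPM in OdG KO lines 1 and 2 against 426 ± 0.898 in OdG WT (log2 0.80 ± 0.0251, adjusted p = 5.3e-14). In EG1, Tdh averaged 694 ± 8.78 CPM in KO against 689 ± 1.32 in WT (log2 0.00). All adjusted p-values for genes here and below come from edgeR's quasi-likelihood test.

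Of the other carriers that take glycine, 4 of 8 tested rose and 2 fell in OdG KO (29.4% and 30.5% of all genes). In EG1 KO 3 of 9 rose and 1 fell (3.60% and 4.06% of all genes). Pooled as one group, OdG KO gave 2 higher and 0 lower, and 1 fell by DESeq2 or without OdG WT replicate 1. Slc38a2, a sodium-coupled carrier of neutral amino acids, averaged 86.4 ± 3.88 and 112 ± 0.786 CPM in OdG KO lines 1 and 2 against 47.3 ± 3.53 in OdG WT (log2 1.06 ± 0.0494, adjusted p = 6.4e-12). In EG1 it averaged 163 ± 5.87 CPM in KO against 125 ± 2.71 in WT (log2 0.37 ± 0.0388, adjusted p = 2.4e-08). Slc1a4, another neutral amino acid carrier, also passed as higher in both parents (log2 0.17 and 0.40, adjusted p = 0.00057 and 1.1e-05). In OdG the rise lay in KO line 2 (103 ± 1.04 CPM), while line 1 (83.1 ± 0.112 CPM) was close to OdG WT (82.1 ± 0.316 CPM). Slc38a4, of the same family as Slc38a2, passed as higher in OdG KO although line 1 lay below OdG WT. It averaged 69.1 ± 0.605 CPM in line 1 and 162 ± 1.2 CPM in line 2, against 84.1 ± 1.11 CPM in OdG WT, and its call was lost when both lines were pooled (adjusted p = 0.42). In EG1 KO it fell by 0.14 on the log2 scale (adjusted p = 0.016), the single lower call of the list there, which had 0 without EG1 WT replicate 1 or 3.

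The rest of the SLC6 and SLCO families gave no common direction. Over all genes 29.4% rose and 30.5% fell in OdG KO, and 3.60% and 4.06% in EG1 KO. In OdG KO 3 of 8 other SLC6 genes rose and 2 fell, among them the creatine carrier Slc6a8 (log2 0.42 ± 0.0279, adjusted p = 7.4e-10) and the taurine carrier Slc6a6 (log2 -0.41 ± 0.0323, adjusted p = 7.1e-09). Slc6a6 did not pass with both KO lines pooled (adjusted p = 0.094). Of 4 other SLCO genes tested, 2 rose and 2 fell. Slco2b1 fell, at 11.1 ± 0.878 and 9.55 ± 0.0274 CPM in OdG KO lines 1 and 2 against 29.3 ± 3.27 CPM in OdG WT (log2 -1.51 ± 0.0888, adjusted p = 1.3e-10), and Slco5a1 rose (log2 0.80 ± 0.136, adjusted p = 5.4e-05, or 0.082 pooled). With the lines pooled, 1 SLCO gene rose and 1 fell, and 1 SLC6 gene fell. In EG1 KO edgeR called 0 of 7 SLC6 and 0 of 5 SLCO genes. At an unadjusted p of 0.05, 1 gene of each family was higher, and DESeq2 called 0 in each.

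Of the 15 tested genes of prostaglandin synthesis, export, breakdown and reception, 5 rose and 5 fell in OdG KO (all genes: 29.4% and 30.5%). Pooling the KO lines gave 1 and 2, and with DESeq2 they were 2 and 3. Without OdG KO line 1 replicate 1, 3 rose, and without OdG WT replicate 1, 3 fell. Ptges3, a prostaglandin E synthase that is also a chaperone partner, rose by a small amount (log2 0.16 ± 0.0278, adjusted p = 7.9e-05). Ptgds, prostaglandin D synthase, fell from low counts, with 1 to 4 in the OdG KO libraries against 25 and 26 in OdG WT (adjusted p = 4.7e-06). In EG1 KO 2 of 14 rose and 0 fell, against 3.60% and 4.06% of all genes (1 was lower at an unadjusted p of 0.05, 0 by DESeq2). The 2 were Ptges (log2 0.24 ± 0.0558, adjusted p = 0.0056) and the cyclooxygenase gene Ptgs2 (log2 0.63 ± 0.19, adjusted p = 0.034). Ptgs2 was at 3.6 ± 0.0887 CPM in EG1 KO against 2.31 ± 0.182 CPM in EG1 WT, and its call was lost with DESeq2 (adjusted p = 0.13) and without any single EG1 library (0.054 to 0.12). Ptges lost its call without EG1 WT replicate 3 (adjusted p = 0.071).

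**Figure D4:**
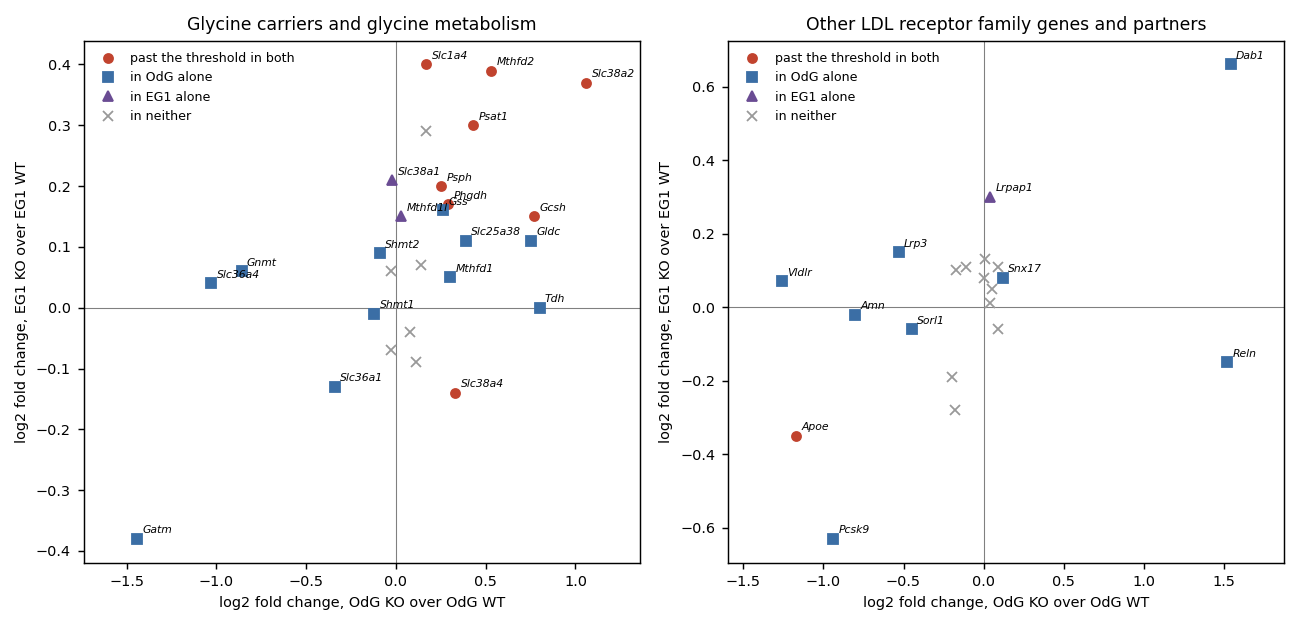
Log2 fold change of OdG KO over OdG WT (horizontal axis) against EG1 KO over EG1 WT (vertical axis), 1 point per gene, for the glycine lists (left) and for other LDL receptor family genes and their partners (right), with symbols for the comparison in which a gene passed an adjusted p of 0.05. Slc38a2 (1.06 and 0.37), Mthfd2 (0.53 and 0.39) and Psat1 (0.43 and 0.30) lie in the upper right, while Vldlr (-1.26 and 0.07) and Sorl1 (-0.45 and -0.06) are lower in OdG KO.

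Among the other members of the LDL receptor family, 3 of 9 tested fell and 0 rose in OdG KO (median log2 -0.11, against -0.01 over all genes, of which 30.5% fell and 29.4% rose), and the same numbers held by DESeq2, with the KO lines pooled and at an unadjusted p of 0.05. Vldlr, which like Lrp8 binds reelin, averaged 9.7 ± 1.15 and 15.1 ± 0.0846 CPM in OdG KO lines 1 and 2 against 29 ± 0.0779 CPM in OdG WT (log2 -1.26 ± 0.0807, adjusted p = 4e-10). In EG1 it averaged 7.06 ± 0.988 CPM in KO against 6.64 ± 1.06 in WT. Sorl1, a sorting receptor of endosomes and the Golgi, averaged 86.6 ± 1.07 and 65.2 ± 1.99 CPM in OdG KO lines 1 and 2 against 103 ± 4.18 CPM in OdG WT (log2 -0.45 ± 0.0399, adjusted p = 2.7e-08), with 137 ± 3.22 CPM in EG1 KO against 142 ± 5.01 in EG1 WT. Lrp3 (log2 -0.53, adjusted p = 0.00041) fell as well. In EG1 KO edgeR called 0 of these 9 genes, as did DESeq2, and 0 had an unadjusted p under 0.05.

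Of 11 chaperones, adaptors, ligands and regulators of these receptors, 3 rose and 3 fell in OdG KO (median log2 0.04, all genes 29.4% and 30.5%). In EG1 KO 1 rose and 1 fell (all genes 3.60% and 4.06%). With the KO lines pooled 0 rose in OdG KO, and 1 rose by DESeq2 or without OdG WT replicate 2 or OdG KO line 1 replicate 1. In EG1, 2 fell without EG1 WT replicate 3 and 2 rose without EG1 KO replicate 3. Apoe, a ligand of several of these receptors, fell in both parents. It averaged 432 ± 0.478 and 341 ± 5.44 CPM in OdG KO lines 1 and 2 against 864 ± 16.9 CPM in OdG WT (log2 -1.17 ± 0.0259, adjusted p = 2.8e-16), and 331 ± 12.8 CPM in EG1 KO against 420 ± 8.85 CPM in EG1 WT (log2 -0.35 ± 0.0346, adjusted p = 9.3e-09). Dab1, the adaptor through which reelin receptors signal, rose in OdG KO from low levels, at 1.16 ± 0.123 and 4.15 ± 0.317 CPM in OdG KO lines 1 and 2 against 0.755 ± 0.177 CPM in OdG WT (log2 1.54 ± 0.312, adjusted p = 0.00018), and did not pass with the lines pooled (adjusted p = 0.094). Lrpap1, the chaperone that keeps ligands off newly made receptors, rose in EG1 KO, at 167 ± 6.97 CPM against 136 ± 0.328 CPM in EG1 WT (log2 0.30 ± 0.0389, adjusted p = 1.9e-06). In OdG the KO lines went opposite ways: Lrpap1 rose in line 1 (207 ± 3.76 CPM, log2 0.30 ± 0.0405, adjusted p = 7.8e-06) and fell in line 2 (143 ± 7.28 CPM, log2 -0.22 ± 0.0415, adjusted p = 0.00017), each against 168 ± 0.42 CPM in OdG WT. Mesdc2, the chaperone of Lrp5 and Lrp6, also rose in OdG KO line 1 (log2 0.20 ± 0.0381, adjusted p = 0.00024) and fell in line 2 (log2 -0.11 ± 0.0388, adjusted p = 0.025), with 0.05 ± 0.0398 in EG1 KO (adjusted p = 0.51).

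Among Wnt receptors and their modulators, 4 of 23 tested rose and 7 fell in OdG KO (median log2 -0.12, all genes 29.4% and 30.5%). With the KO lines pooled 3 rose and 2 fell. Of the Frizzled receptor genes, Fzd5 rose (log2 0.51 ± 0.038, adjusted p = 3.9e-09), at 109 ± 1.77 and 116 ± 1.69 CPM in OdG KO lines 1 and 2 against 79.4 ± 2.78 CPM in OdG WT. Fzd7 fell (log2 -0.45 ± 0.0508, adjusted p = 6.5e-07), at 42.8 ± 2.28 and 45.5 ± 0.265 CPM in OdG KO lines 1 and 2 against 60.5 ± 1.79 CPM in OdG WT. In EG1 KO edgeR and DESeq2 called 0 of 20, and 1 gene was lower at an unadjusted p of 0.05.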

How the data were processed

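Per the submitters' processing notes, the tools were CASAVA, HISAT2 2.1.0, featureCounts 1.6.4 and DESeq2, with the mm10 build; annotation, filters and strand setting are not given in these sources. Per the labels' protocols, 1 µg of RNA went into each NEBNext Ultra library. The authors deposited raw integer counts for each symbol in 2 tables; 0 columns were left unmatched. The tests were run in edgeR 4.0.16 under R 4.3.3 (filterByExpr, trimmed mean of M values, quasi-likelihood fit with 1 mean per group), one fit per table, and one over all 12 libraries for the parental lines and the difference of KO effects. OdG KO gives its 2 KO lines equal weight in log2. Log2 CPM for likeness used a prior count of 2. This left 14413 genes in OdG and 14016 in EG1, all 7 members among them. Replicates were not duplicates (chi-square over degrees of freedom 1.84 to 3.86). The fits were tested on simulated data. Tests were two-sided, called at an adjusted p under 0.05. From each list the text names the 2 called genes with the smallest adjusted p per parent (1 CPM or more). For each member it names the 2 or 3 most similar genes. Lrp3, Amn, Sparc, Tdgf1, Mesdc2, Phgdh, Psph, the single fibroblast and endoderm markers and the strand neighbours were added after their values were seen. A few genes of the lists are not reported here, and the counts leave them out. The members and lists were chosen with earlier results of these data known. Alternatives were RLE and upper quartile scaling, no filter, DESeq2 1.42.0, each library left out, a replicate block, all libraries in 1 fit, and the OdG KO lines pooled into one group.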

Additional observations from a re-analysis of the deposited data

Results flagged for a closer look

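For genes of the lists named above, the KO effect was compared between parents by an interaction in the fit over all 12 libraries (edgeR, adjusted over 14977 genes, of which 39.8% passed). Most were named for a small adjusted p in 1 of the 2 KO effects compared here, a choice that favours a difference. Their adjusted p-values are therefore a description, and only genes that passed are listed. The values are the log2 change in OdG KO minus that in EG1 KO, each against its own WT, and do not compare the levels of the KO cells. The receptor and ligand genes Vldlr (-1.34, adjusted p = 4.9e-08), Apoe (-0.83, 2.6e-15) and Sorl1 (-0.41, 1.1e-06) fell further from WT in OdG KO than in EG1 KO. Lrpap1 (-0.27, adjusted p = 0.00018) had the lower change in the mean of the OdG KO lines. Of these, line 1 rose (0.30) and line 2 fell (-0.22), against a rise in EG1 KO (0.30). The glycine genes Tdh (0.78, adjusted p = 5.5e-16), Slc38a2 (0.68, 4.9e-10), Gcsh (0.61, 2.7e-10) and Psat1 (0.13, 0.014) had the larger change in OdG KO. Slc38a4 (0.47, adjusted p = 2.9e-08) fell in OdG KO line 1 (-0.28) and rose in line 2 (0.95). Slc1a4 (-0.24, adjusted p = 0.0054) had the larger rise in EG1 KO. Among the other transporters, Slco5a1 (0.61, adjusted p = 0.0025) and Slc6a8 (0.39, 9.5e-09) differed upward and Slc6a6 (-0.37, 1.6e-07) downward. Fzd5 (0.46, adjusted p = 4.9e-08) and Fzd7 (-0.40, 6.8e-05) went opposite ways. Ptges (-0.38, adjusted p = 0.00056) and Ptges3 (0.19, 0.0051) also differed, with Ptges at 0.14 in OdG KO line 1 and -0.41 in line 2. Groups held 2 or 3 libraries, too few to look for a library that stands apart within a group, and every column of the tables was used.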

How the results depend on the processing

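The 6 libraries per table limit precision, and Lrp2 in OdG WT rests on 34 and 58 counts. With the OdG KO lines pooled 4609 genes were called in OdG. DESeq2 called 684 in EG1 KO, 3407 between the OdG KO lines, and 3 of the 7 members between those lines. Leaving out each library gave 638 to 1213 calls in EG1 KO and 3 to 5 members between the OdG KO lines. Lrp8 and Slco2a1 were the members that lost that call, Lrp8 also without the filter on low counts (adjusted p = 0.053) and Slco2a1 with upper quartile scaling (0.063). Of the remaining values of the members, 641 moved by less than the spread between libraries or kept their side of the threshold, and 20 untested values moved further. The widest was Lrp2, whose change in both OdG KO lines together was 1.92 without OdG WT replicate 1 and 2.72 without replicate 2. Same-numbered libraries did not deviate together (r from -0.05 to 0.03), which cannot show whether they were prepared as pairs. In OdG, with 2 libraries per group, both replicate numbers give the same r by construction. With the replicate block 8542 genes were called in OdG KO, 906 in EG1 KO, 5334 between the OdG KO lines and 10241 between the WT cells. The member calls were then 5 and 6. The alternatives for the difference between parents were chosen after seeing the data. The causes of these shifts were not tested.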
